A study of Mus musculus with 6 samples.

Results

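The loci described here are 7 windows of the mouse genome that hold genes for the main secreted proteins of hepatocytes: albumin and alpha-fetoprotein (Alb, Afp), the 3 fibrinogen chains (Fga, Fgb, Fgg), the Apoa1 cluster (Apoa1, Apoc3, Apoa4, Apoa5), the Apoe cluster (Apoe, Apoc1), Apob, Ttr and the Serpina cluster. The members were all probes without a control function whose start on mm9 lay in these windows, and they numbered 313 of 174638 on the array. Of these, 171 lay in the Serpina window, 40 in the Apoa1 window, 34 in the Apoe window, 30 in the fibrinogen window, 21 in the Alb-Afp window, 9 at Ttr and 8 at Apob. No member was lost to a spot flag, no member was saturated, and all 313 fell into 42 regions, a region being a run of at least 3 probes with starts at most 1000 bp apart. The 13 genes named above outside the Serpina cluster had 1 region each, the Serpina cluster had 22, and 7 regions belonged to neighbouring genes in the same windows (Afm, Zpr1, Bud13, Apoc2, Apoc4, Tomm40, Plrg1).

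DNA methylation was measured at 32 weeks in the liver of mice whose dams had received a chromium restriction diet (3 arrays) or a control diet (3 arrays). Strain, sex, litter and the time over which the dams were fed are not given in the sources used here, and nothing states that the 3 samples of a group came from separate litters. The p-values therefore cover the spread among the samples at hand, which may be technical. The labels name the tissue as liver but describe the DNA as extracted from fat. The assay was MeDIP-chip, in which an antibody against methylated cytosine pulls down DNA fragments that are labelled red (Cy5) and hybridised against green (Cy3) input DNA on a two-colour Agilent array. The value of a probe is the log2 ratio of immunoprecipitated over input signal, centred on the array's median, so 0 is the middle of the array and not absence of methylation. Positions of regions and probes are those of the array design on mm9, and whether they lie in exons, introns or UTRs was not analysed here. A region's value is the mean over its probes. A level read in this way depends on how many methylatable CpG sites a fragment holds and on the probe itself, so an order of levels between regions is an order of array readings and not of methylated fractions.

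Hepatocytes make nearly all of the albumin, fibrinogen, transthyretin and antiprotease activity of blood plasma and much of its apolipoprotein. Their genes are transcribed under liver-enriched factors such as HNF1, HNF4 and C/EBP, and several have promoters that hold few CpG sites, in contrast to the CpG islands of housekeeping genes. Methylation of CpG sites near a start of transcription is known to go together with silence of the gene in many tissues, and Afp is the textbook case of a liver gene that is switched off after birth while its neighbour Alb stays on.

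The promoters of 6 genes are shown, since they span the range of levels discussed in the following paragraphs. Their printed bases hold from 1 CG (Afp, Apoa4) to 9 (Serpina3a), and promoters poorer or richer in CpG are not shown. Alb and Afp are the adjacent sister genes, Apoa4 read high on the array with a single CG, Apob read low with 7, and Serpina3a and Serpina1e had the highest and the lowest region of all 42 in the main values. Each run holds the 250 bases before the gene start, 5′ to 3′ on the gene's strand, from RefSeq on GRCm38.p6, which is a later build than the mm9 of the array. The positions are chr5:90460620-90460869 (plus strand) for Alb, chr5:90490464-90490713 (plus) for Afp, chr9:46240594-46240843 (plus) for Apoa4, chr12:7977427-7977676 (plus) for Apob, chr12:104112474-104112723 (plus) for Serpina3a and chr12:103956898-103957147 (minus) for Serpina1e. Capitals mark each CG, the dinucleotide at which mammalian DNA is methylated.
Alb: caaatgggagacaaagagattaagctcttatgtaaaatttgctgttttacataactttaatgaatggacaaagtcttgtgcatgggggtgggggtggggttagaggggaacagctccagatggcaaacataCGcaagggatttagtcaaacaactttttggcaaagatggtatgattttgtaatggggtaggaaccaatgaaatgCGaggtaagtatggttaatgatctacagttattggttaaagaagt
Afp: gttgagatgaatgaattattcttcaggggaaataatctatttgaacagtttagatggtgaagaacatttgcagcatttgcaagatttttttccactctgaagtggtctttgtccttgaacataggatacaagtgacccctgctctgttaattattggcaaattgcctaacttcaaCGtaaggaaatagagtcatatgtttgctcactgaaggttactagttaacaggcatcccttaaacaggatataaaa
Apoa4: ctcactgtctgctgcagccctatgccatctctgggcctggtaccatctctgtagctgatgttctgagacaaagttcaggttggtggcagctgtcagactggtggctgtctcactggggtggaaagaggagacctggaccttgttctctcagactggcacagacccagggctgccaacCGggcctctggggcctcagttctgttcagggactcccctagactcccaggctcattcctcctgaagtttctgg
Apob: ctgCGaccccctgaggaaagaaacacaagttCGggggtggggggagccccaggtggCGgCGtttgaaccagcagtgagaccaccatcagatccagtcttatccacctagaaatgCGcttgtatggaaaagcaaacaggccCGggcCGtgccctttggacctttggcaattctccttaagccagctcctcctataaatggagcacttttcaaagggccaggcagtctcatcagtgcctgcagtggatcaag
Serpina3a: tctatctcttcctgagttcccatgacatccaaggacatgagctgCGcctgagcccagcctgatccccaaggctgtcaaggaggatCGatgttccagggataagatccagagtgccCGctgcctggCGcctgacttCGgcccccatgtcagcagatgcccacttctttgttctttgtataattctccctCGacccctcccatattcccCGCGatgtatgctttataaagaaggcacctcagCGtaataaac
Serpina1e: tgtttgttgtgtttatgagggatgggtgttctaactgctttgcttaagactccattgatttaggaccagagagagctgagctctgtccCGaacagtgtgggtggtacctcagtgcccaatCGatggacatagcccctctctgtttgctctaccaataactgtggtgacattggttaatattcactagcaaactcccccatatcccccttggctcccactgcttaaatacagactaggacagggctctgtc

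As a group the 42 regions read like the rest of the array. Their median level over the 6 arrays was -0.10 on the log2 scale, with quartiles of -0.44 and 0.25, against a median of -0.11 and quartiles of -0.45 and 0.20 over all 21987 regions. Of the 42, 10 lay below the array's lower quartile and 12 above its upper quartile. The range within the group was wide, from -1.05 at Serpina1e to 1.23 at Serpina3a. After loess the same 2 regions were at the ends. Apoc4 was above Serpina3a after normexp (0.93 and 0.59) and in the authors' deposited table (1.22 and 0.85). The lowest region was Serpina3j after normexp (-0.40, with -0.35 at Serpina1e), and Afp in the authors' deposited table (-0.81, with -0.57 at Serpina1e). A probe is called detected where the scanner software marked both its channels as well above background on each array. Of the 313 probes, 234 (74.8%) were detected, against 67.5% of all probes. In 46 of the 313 the immunoprecipitated signal was not well above background on any array, so that their ratio is a bound and not a measurement, and in 13 the same held for the input signal.

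**Figure D1:**
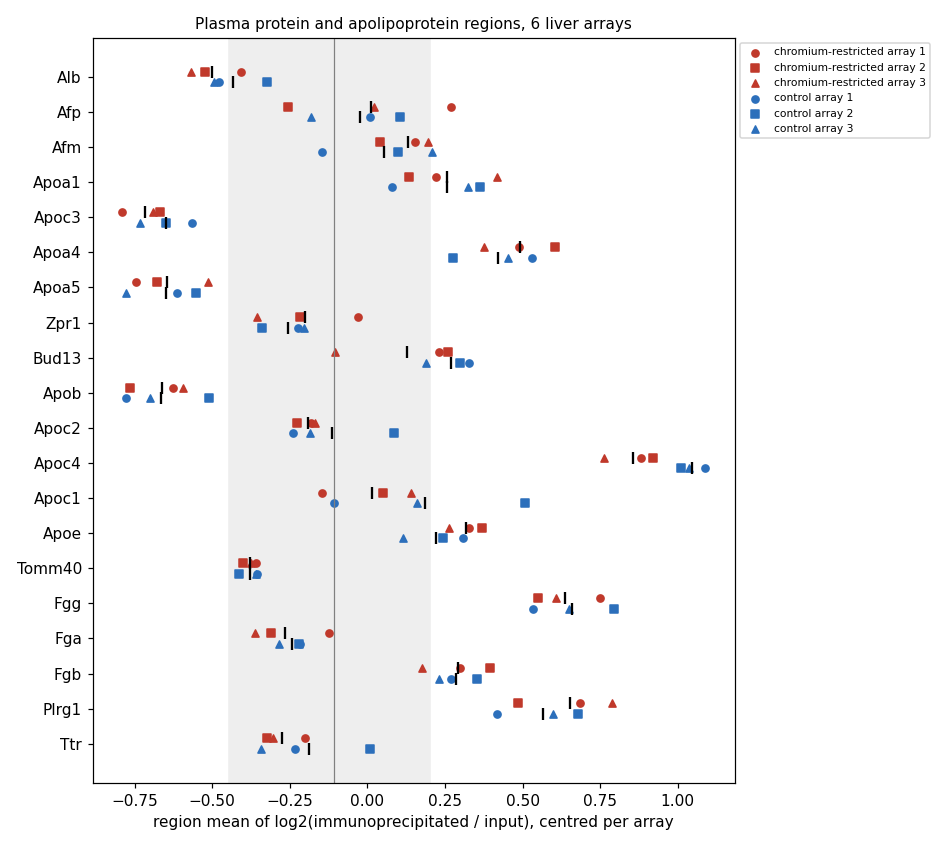
Region means (x axis, log2 of immunoprecipitated over input, centred per array) of the 20 regions outside the Serpina cluster, with 1 marker per array, red for chromium-restricted and blue for control, and a black bar at each group mean. The grey band is the quartile range of all 21987 regions and the grey line their median of -0.11. Apoc4, Fgg, Plrg1 and Apoa4 lie above the band on all 6 arrays, and Apoc3, Apoa5 and Apob lie below it on all 6.

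The albumin family is represented by Alb, Afp and Afm, which encode the main plasma carrier protein, its fetal counterpart and the vitamin E carrier afamin. Alb (chr5:90888822-90890356, mm9) read -0.41, -0.52 and -0.57 in the chromium-restricted arrays and -0.48, -0.32 and -0.49 in the control arrays. All 6 values were below the array's median, and the mean of -0.47 lay at percentile 23.9 of all regions. Afp (chr5:90918440-90920197) read 0.27, -0.26 and 0.020 in the chromium-restricted arrays and 0.0069, 0.11 and -0.18 in the control arrays, with the arrays of each group on both sides of 0. Its mean of -0.0063 lay at percentile 58.6, but none of its 7 probes was detected, and the percentile was 94 after loess and 8.58 in the authors' deposited table. Afm (chr5:90946767-90948356) read 0.15, 0.042 and 0.20 in the chromium-restricted arrays and -0.15, 0.098 and 0.21 in the control arrays, percentile 66.6 for the mean. Its percentile was 80.8 after loess, 30.1 with its 3 detected probes and 27.5 in the authors' deposited table. An order of Alb below Afp held for the main values and after loess, and it turned after normexp (percentile 29.1 at Alb and 19.9 at Afp) and in the authors' deposited table, where Alb lay at percentile 22.4. With its 3 detected probes, Alb lay at percentile 47.5.

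Fibrinogen is the clotting protein built from alpha, beta and gamma chains, whose genes Fga, Fgb and Fgg lie side by side on chromosome 3. The 3 neighbours did not read alike in the main values. Fgg (chr3:82810617-82812127) was the highest region among the 13 named genes in the main values, at percentile 96.1 of the array. It read 0.75, 0.55 and 0.61 in the chromium-restricted arrays and 0.53, 0.80 and 0.65 in the control arrays. Apoa4 was above Fgg after normexp (0.58 and 0.49) and in the authors' deposited table (0.80 and 0.60). Afp was above Fgg after loess (0.581 and 0.577). Fgb (chr3:82853213-82854727) read 0.30, 0.40 and 0.18 in the chromium-restricted arrays and 0.27, 0.35 and 0.23 in the control arrays, at percentile 80.7. Fga (chr3:82828854-82830360) read -0.12, -0.31 and -0.36 in the chromium-restricted arrays and -0.22, -0.22 and -0.29 in the control arrays, at percentile 38.3. All 6 Fga values were below all 6 Fgb values, and all 6 Fgb values below all 6 Fgg values. The order of the 3 was kept after loess. The order of Fgb above Fga turned in the authors' deposited table, where Fgb lay at percentile 37.5 and Fga at 53.6. After normexp Fgb lay at percentile 60.3 and Fga at 57.9. With detected probes only, Fgb (3 probes, percentile 95.6) was close to Fgg (5 probes, percentile 95.8), and Fga (6 probes) lay at percentile 69.0. Fgg lay at percentile 92.2 or above in each of the 5 ways of computing levels. Plrg1 (chr3:82858160-82859788), a splicing factor gene next to Fgb whose promoter holds 35 CpG sites, read 0.69, 0.48 and 0.79 (chromium-restricted) and 0.42, 0.68 and 0.60 (control), percentile 95.3, or 49.3 with its 4 detected probes.

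The Apoa1 cluster on chromosome 9 held regions from both ends of the range. Apoa1, the main protein of HDL, read 0.22, 0.13 and 0.42 in the chromium-restricted arrays and 0.078, 0.36 and 0.32 in the control arrays (chr9:46035427-46037115, percentile 78.7). Apoa4 (chr9:46047749-46049332), an apolipoprotein of chylomicrons and HDL, read 0.49, 0.60 and 0.38 in the chromium-restricted arrays and 0.53, 0.27 and 0.45 in the control arrays, percentile 89.9, with all 8 probes detected. These 2 genes were above the array's median on every array. Apoc3 (chr9:46042885-46044885), an inhibitor of triglyceride clearance that lies between them on the opposite strand, read -0.79, -0.67 and -0.69 in the chromium-restricted arrays and -0.56, -0.65 and -0.73 in the control arrays, percentile 13.8. Apoa5 (chr9:46075404-46077112), which promotes triglyceride clearance by lipoprotein lipase, read -0.74, -0.68 and -0.51 in the chromium-restricted arrays and -0.61, -0.55 and -0.78 in the control arrays, percentile 15.2. Apoc3 and Apoa5 were below Apoa1 and Apoa4 on every array, and their ranges overlapped each other. Over the 5 ways of computing levels, percentiles ran from 6.68 to 19.0 at Apoc3 and from 11.9 to 27.2 at Apoa5. They ran from 59.3 to 88.6 at Apoa1 and from 74.3 to 97.3 at Apoa4. Of the neighbours that are not apolipoprotein genes, Zpr1 (chr9:46079851-46081560) lay at percentile 40.2, and Bud13 (chr9:46089796-46091411), of whose 8 probes 1 lay in the window, at 74.8. Zpr1 lay at percentile 31.9 after loess, 61.1 after normexp and 64.6 in the authors' deposited table.

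The Apoe cluster on chromosome 7 held the region with the highest level outside the Serpina cluster. This was Apoc4 (chr7:20266561-20267285), a minor apolipoprotein gene covered by 3 probes, at percentile 99.5 of all regions. It lay at percentile 94.5 or above in each of the 5 ways of computing levels. Apoe (chr7:20284018-20285689), the ligand by which remnant lipoproteins are taken up, read 0.33, 0.37 and 0.26 in the chromium-restricted arrays and 0.31, 0.24 and 0.11 in the control arrays, percentile 79.6, with all 6 probes detected. Over the 5 ways Apoe ran from percentile 59.2 (detected probes only) to 90.6 (authors' deposited table). Apoc1 (chr7:20277517-20279129), which modulates lipid-transfer and lipase activity, read -0.15, 0.051 and 0.14 in the chromium-restricted arrays and -0.11, 0.51 and 0.16 in the control arrays, percentile 67.3. The spread between arrays at Apoc1 was large for these loci, with control array 2 far above the others. Apoc2 (chr7:20262803-20264351), the activator of lipoprotein lipase, lay at percentile 46.4, and the mitochondrial import gene Tomm40 (chr7:20300316-20301993) at 29.5. In the authors' deposited table Apoc2 lay at percentile 70.8 and Tomm40 at 54.0. After loess Apoc2 lay at percentile 29.5 and Tomm40 at 12.9. Tomm40 varied least of the 42 between arrays of a group, with an SD of 0.028.

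Apob and Ttr stand alone in their windows. Apob (chr12:7983202-7984954), the structural protein of VLDL and LDL, read -0.63, -0.77 and -0.60 in the chromium-restricted arrays and -0.78, -0.51 and -0.70 in the control arrays. All 6 values lay below the array's lower quartile, and the percentile of the mean was 14.4. Over the 5 ways of computing levels, Apob ran from percentile 8.13 (loess) to 31.2 (authors' deposited table). Ttr (chr18:20822491-20824190), the carrier of thyroxine and retinol-binding protein, read -0.20, -0.32 and -0.30 in the chromium-restricted arrays and -0.23, 0.0094 and -0.34 in the control arrays, percentile 39.8. Its 5 values below 0 and the value near 0 on control array 2 left both groups overlapping.

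The Serpina cluster on chromosome 12 encodes secreted inhibitors of serine proteases and related proteins, among them the alpha-1-antitrypsin genes (Serpina1a to Serpina1e) and the many copies of the antichymotrypsin-like Serpina3 group. Its 22 regions were 6 of the Serpina1 genes, 10 of the Serpina3 genes, 5 of other genes and 1 without a name. In the main values the Serpina1 regions had a median level of -0.50, the Serpina3 regions of -0.16 and the 5 others of 0.096. These medians were not computed for the other ways, so their order is of the main values only. Genes in the middle of their groups moved in the authors' deposited table. There Serpina1a read -0.079, Serpina1c 0.030 and Serpina4-ps1, of the others, -0.054. Serpina3a (chr12:105349634-105351304, 4 probes), the highest of the 42 in the main values but below Apoc4 after normexp and in the authors' deposited table, read 1.45, 0.95 and 1.29 in the chromium-restricted arrays and 0.91, 1.45 and 1.31 in the control arrays, percentile 99.95. Serpina12 (chr12:105282155-105283848), which encodes the adipokine vaspin, read 0.68, 0.65 and 0.79 in the chromium-restricted arrays and 0.71, 0.68 and 0.81 in the control arrays, and Serpina1f (chr12:104932404-104934756) read 0.20, 0.32 and 0.23 in the chromium-restricted arrays and 0.32, 0.51 and 0.34 in the control arrays. These 3 were above the array's upper quartile, except Serpina1f on chromium-restricted array 1. Serpina1f lay at percentile 50.2 with its 9 detected probes.

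At the other end, Serpina1e (chr12:105194620-105196395) read -1.101, -1.25 and -0.88 in the chromium-restricted arrays and -1.21, -0.83 and -1.05 in the control arrays, percentile 5.7. Serpina3h (chr12:105484806-105486604) read -0.67, -0.89 and -0.56 in the chromium-restricted arrays and -0.89, -0.43 and -0.72 in the control arrays, and Serpina3j (chr12:105551514-105553220) read -0.74, -0.88 and -0.45 in the chromium-restricted arrays and -0.94, -0.40 and -0.73 in the control arrays. Within each of these 3 genes the arrays varied together: control array 2 and chromium-restricted array 3 were the highest and chromium-restricted array 2 and control array 1 the lowest. The alpha-1-antitrypsin genes spread from -1.05 at Serpina1e through -0.66 at Serpina1d, -0.59 at Serpina1a and -0.42 at Serpina1c to -0.075 at Serpina1b. With detected probes only, they read -0.38 at Serpina1e, -0.22 at Serpina1d, -0.40 at Serpina1a, -0.42 at Serpina1c and -0.075 at Serpina1b, so the order of the first 4 was not kept. The low ends of Serpina1e and Serpina1d included a probe each whose immunoprecipitated signal was not well above background on any array. With detected probes only, Serpina3j was the lowest of the regions with a value, at -0.64. The promoters of Serpina1a to Serpina1e are near copies, with 91.4% to 97.6% identity over aligned stretches of 240 to 300 bases in 10 pairs. A fragment of one copy may therefore hybridise to probes of another, and their levels may not be independent. Whether the probes lie in these stretches was not tested.

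**Figure D2:**
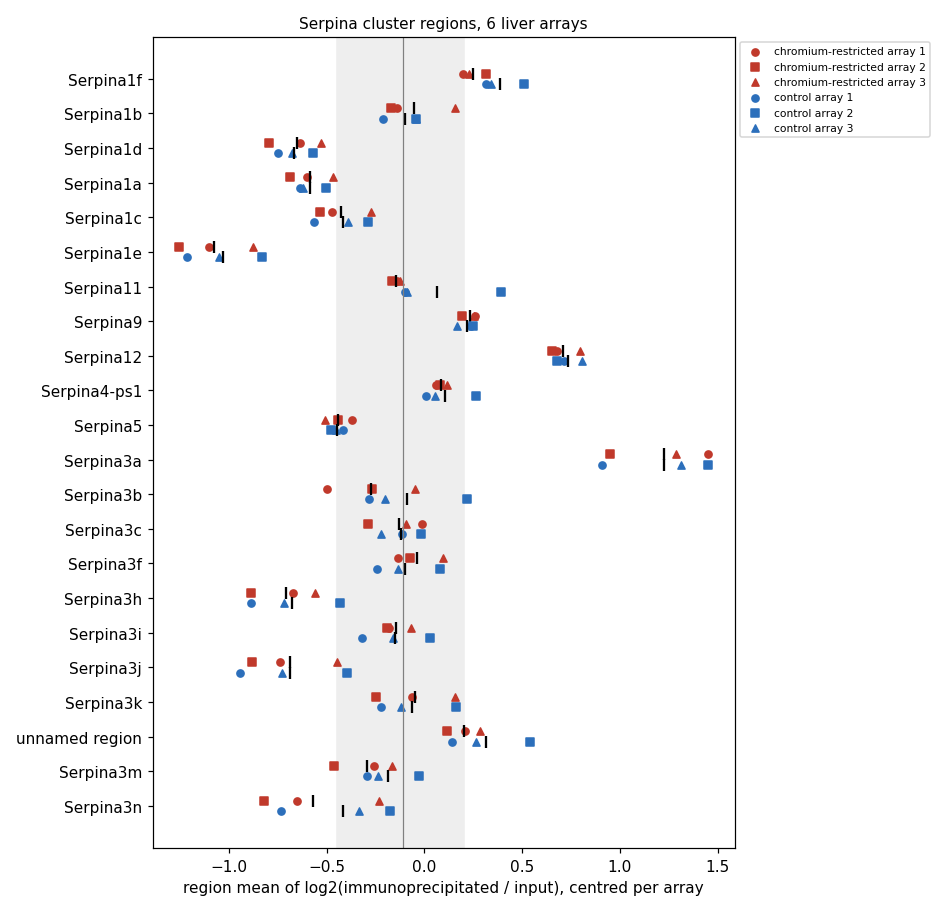
Region means (x axis, log2 of immunoprecipitated over input, centred per array) of the 22 Serpina regions in chromosomal order, drawn like the plot of the other 20 regions, red for chromium-restricted and blue for control arrays. Serpina3a and Serpina12 lie above the grey quartile band of all regions on each array, and Serpina1e, Serpina1d and Serpina1a lie below it on each array.

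The spread of levels over the probes of a region was wider than the spread of the region mean between arrays. The SD over probes had a median of 0.99 (0.081 to 1.88), without Bud13, which had 1 probe in its window. Over the 42 regions the SD of the region mean between arrays of a group had a median of 0.13 (0.028 to 0.30). Both include the probes that were not detected. The SD between arrays is of means over several probes, which narrows it, so the size of the contrast does not apply to single probes. Along the gene's direction, of 38 regions with enough probes to split, 18 were lower and 20 were higher on the side toward the gene, and the median of that side minus the upstream side, dim probes included, was 0.087.

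**Figure D3:**
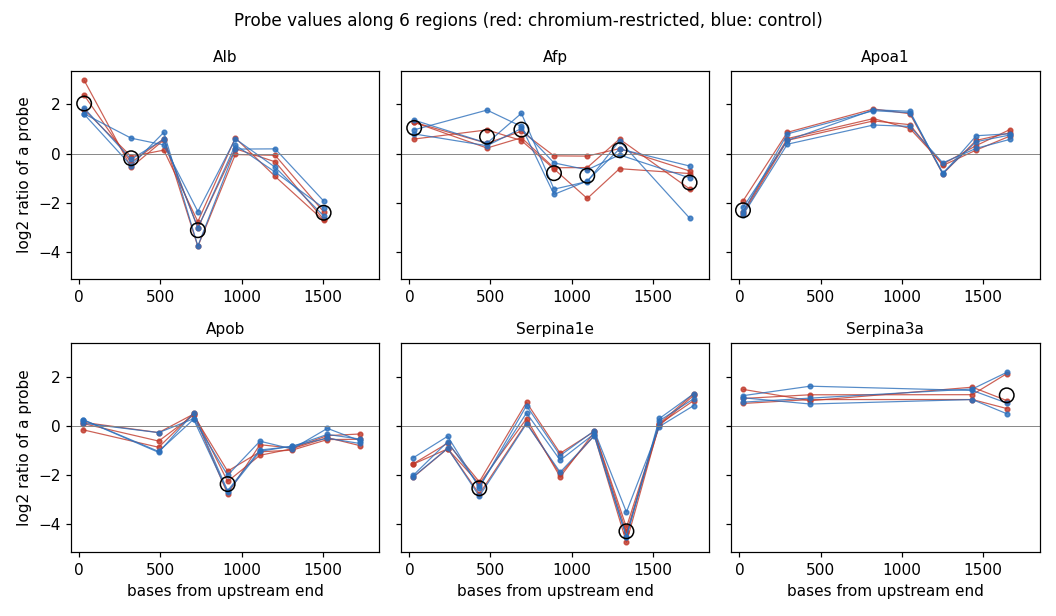
Probe values (y axis, log2 of immunoprecipitated over input, centred per array) against distance in bases from the upstream end of the region in 6 genes, with 1 line per array, red for chromium-restricted and blue for control. Open black circles mark probes that were not detected. The lines of the groups run together, with an SD over probes of 1.77 at Alb and 1.68 at Serpina1e.

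The extreme single probes were mostly dim in one channel. The 5 highest were at Afm (3.84 over 6 arrays), Serpina12 (2.48), Serpina1f (2.37), Serpina3n (2.10) and the upstream end of Alb (2.04). In 4 of these 5 the input signal was well above background on at most 2 of 6 arrays, the exception being the Serpina1f probe, so these 5 have no order. The 5 lowest were at Serpina1e, Serpina1d, Serpina3h, Serpina3f and Alb, and none of them had an immunoprecipitated signal well above background on any array. Their values of -4.28, -4.15, -3.97, -3.96 and -3.12 therefore rest on dim signals and have no order.

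The study's question was whether the maternal chromium restriction diet altered methylation in the liver of the offspring. At these loci no region and no probe changed at an adjusted p under 0.05 (limma, Benjamini-Hochberg over all regions or all probes). The smallest adjusted p of the 42 regions was 1.0. The same held for the whole array, where 0% of the 21987 regions and 0% of the 174278 probes passed. Without adjustment, 1 of the 42 regions had p under 0.05 (2.38%, Apoc4, lower), where 0.896% of all regions did (0.409% higher, 0.487% lower). Differences, chromium-restricted minus control, were above 0 in 19 of the 42 and below 0 in 23, so 45.2% were above 0, against 52.5% over the array. Their median was -0.0064, against 0.0040 over all regions, and they ran from -0.21 to 0.097.

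The unadjusted 95% intervals give the precision of the 6 arrays. The interval of a region's difference reached a median of 0.23 to each side, and it held 0 in 41 of the 42 regions. The widest bound of any of them was 0.57 from 0. At Tomm40, where arrays varied least, the difference was -0.00054 (95% interval -0.16 to 0.16). At Apob it was 0.00050 (95% interval -0.22 to 0.22), and at Fgb 0.0055 (95% interval -0.19 to 0.20).

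**Figure D4:**
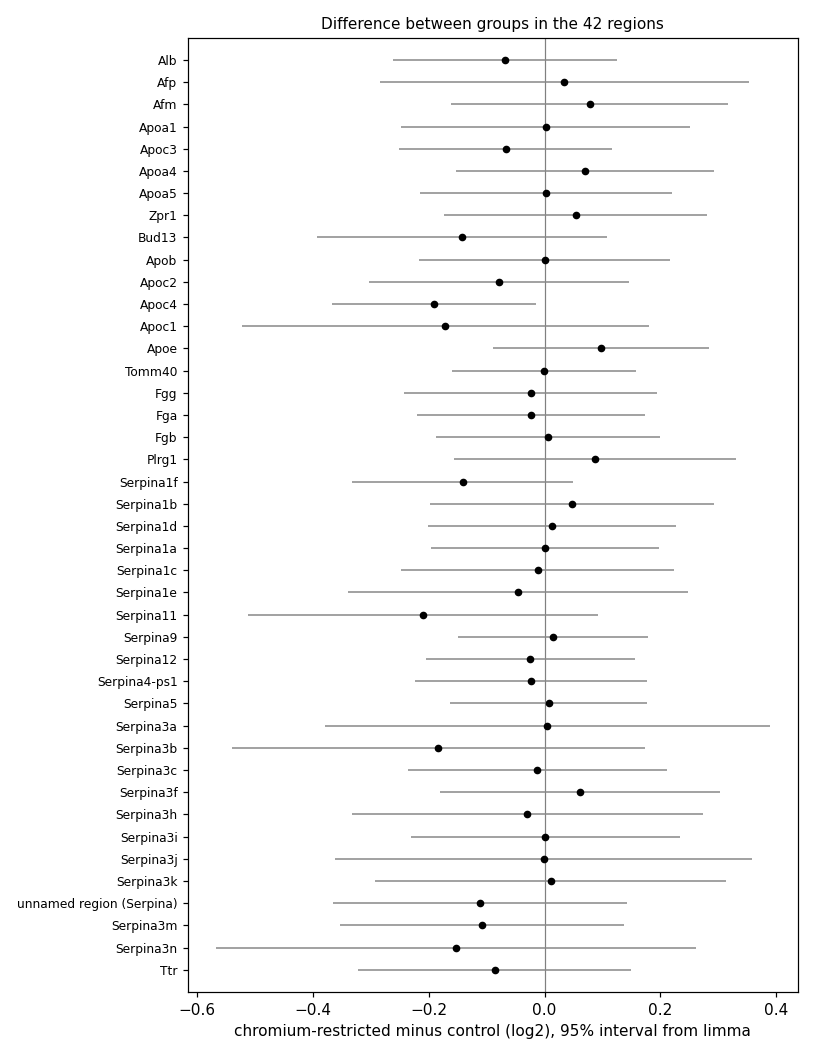
Difference between the group means (x axis, log2, chromium-restricted minus control) with its 95% interval from limma for each of the 42 regions, in the order of their windows. The intervals are not adjusted over the array, and the interval at Apoc4 is the only 1 of the 42 that leaves out 0.

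Among the 13 named genes, the difference was above 0 in 7 and below 0 in 6. The albumin pair gave -0.068 (95% interval -0.26 to 0.13) at Alb and 0.034 (95% interval -0.28 to 0.35) at Afp. The Alb difference was -0.014 without control array 2 and -0.016 after loess, and -0.28 with the median over probes. The fibrinogen chains gave -0.023 at Fga and -0.024 at Fgg, both smaller than the SD between arrays of a group. The HDL and triglyceride genes gave 0.0017 at Apoa1, 0.070 at Apoa4, 0.0023 at Apoa5 and -0.067 at Apoc3. At Ttr the difference was -0.086 (95% interval -0.32 to 0.15), and it was 0.013 without control array 2 and -0.16 without control array 3. The smallest unadjusted p of the 13 was 0.264, at Apoe, with 0.097 (95% interval -0.089 to 0.28), which was 0.043 without control array 3 and 0.059 with normexp. Apoe was also the only region of the 42 that was higher in the chromium-restricted array of each of the 3 scans, by 0.019, 0.12 and 0.15, while 6 were lower in each. The share of all regions with the same sign in the 3 scans was not computed, so this count does not set Apoe apart. At its neighbour Apoc1 the difference was -0.17 (95% interval -0.52 to 0.18), and it was -0.010 without control array 2 and -0.32 without control array 1, where the unadjusted p was 0.0378.

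The groups did not overlap in 2 of the 42 regions (4.76%), both lower in the chromium-restricted arrays, where 4.44% of all regions did not overlap (2.49% higher, 1.95% lower). At Apoc4 the values were 0.88, 0.92 and 0.76 in the chromium-restricted arrays and 1.09, 1.01 and 1.04 in the control arrays. The difference was -0.19 (95% interval -0.37 to -0.015) (limma, unadjusted p = 0.0364, adjusted p = 1.0), and all 3 probes, each of them detected, were lower. It was -0.21, -0.092 and -0.27 within the 3 scans. The unadjusted p was 0.0737 with the scan as a block, 0.0654 without chromium-restricted array 1, 0.123 without chromium-restricted array 3, 0.102 without control array 1 and 0.0842 without control array 3. With the median over its 3 probes the difference was -0.073. At Serpina11 (chr12:105227659-105228975) the values were -0.14, -0.17 and -0.12 in the chromium-restricted arrays and -0.10, 0.39 and -0.091 in the control arrays. Its difference of -0.21 (95% interval -0.51 to 0.092) turned on control array 2 and was -0.048 without it.

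Within the Serpina cluster the smallest unadjusted p was 0.126, at Serpina1f, with a difference of -0.14 (95% interval -0.33 to 0.049) that was negative in each scan. The difference was -0.082 without control array 2, -0.078 with normexp, -0.085 with detected probes only and -0.043 with the median over probes. The unadjusted p was 0.148 at Serpina11 and 0.272 at Serpina3b. Serpina3b (chr12:105365019-105366575) read -0.50, -0.27 and -0.047 in the chromium-restricted arrays and -0.28, 0.22 and -0.20 in the control arrays. Its groups overlapped, and its difference of -0.18 (95% interval -0.54 to 0.17) was -0.031 without control array 2 and -0.30 without chromium-restricted array 3. The genes with the extreme levels did not stand apart by diet, with 0.0051 at Serpina3a, -0.024 at Serpina12, -0.046 at Serpina1e, -0.029 at Serpina3h and -0.0012 at Serpina3j. All 5 changed sign when some single array was left out.

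Of the 313 probes, 3 had an unadjusted p under 0.05 (0.958%, 2 higher and 1 lower), against 1.3% of all probes (0.685% higher, 0.612% lower). The probe at the gene-side end of the Apoe region (chr7:20284018-20284071) read 0.47, 0.42 and 0.35 in the chromium-restricted arrays and 0.20, -0.16 and -0.40 in the control arrays. The groups did not overlap, all signals were well above background, and the difference was 0.53 (limma, unadjusted p = 0.0235, adjusted p = 1.0). An Afp probe (chr5:90919106-90919155) read 0.91, 0.53 and 0.64 in the chromium-restricted arrays and 1.02, 1.103 and 1.64 in the control arrays, a difference of -0.56. The upstream probe of Alb (chr5:90888822-90888881) read 2.98, 2.37 and 1.79 in the chromium-restricted arrays and 1.60, 1.62 and 1.85 in the control arrays, with chromium-restricted array 3 inside the control range and a difference of 0.69. At the Alb and the Afp probe the input was well above background on 1 of 6 arrays.

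Some variation between arrays ran across both groups. Control array 2 was the highest of the 6 in 18 of the 42 regions, control array 1 the lowest in 13 and chromium-restricted array 2 the lowest in 12. The median input signal over all probes was 38.1 on control array 2, the dimmest, and 98.3 and 83.8 on control array 1 and chromium-restricted array 2, the brightest. Its part in the results was not tested. Slide position was 2 for each chromium-restricted array and 4 for each control array, so position and diet cannot be told apart.

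RefSeq's table held a promoter of 300 bases (250 before to 50 after the start, GRCm38.p6) for 33 of the 41 named regions, and these promoters were poor in CpG. Their median was 4 CpG sites, against 7 over all 27025 promoters of the table, and 7 of the 33 were above that value. The 3 richest belonged to genes that are not liver secretory genes, Plrg1 (35), Tomm40 (23) and Bud13 (19). Apoe (10) and Serpina3a (11) were the richest of the named secretory genes, and Serpina3f and Serpina3i had 0. CpG content and array level in the main values had a Pearson r of 0.27 and a Spearman rho of 0.29 over the 33 genes. This is a description over genes that share the same 6 arrays and, in the Serpina1 group, nearly the same sequence. The CpG count covers 300 bases, while the level is a mean over a longer region and includes probes that were not detected. Alb and Afp had the same count of 3, at levels of -0.47 and -0.0063 in the main values. The order of their levels was kept after loess (-0.19 at Alb and 0.58 at Afp). It turned after normexp (-0.14 at Alb and -0.23 at Afp). It also turned in the authors' deposited table (-0.42 at Alb and -0.81 at Afp). No Afp probe was detected, so this pair does not give a stable contrast of levels at equal count.

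**Figure D5:**
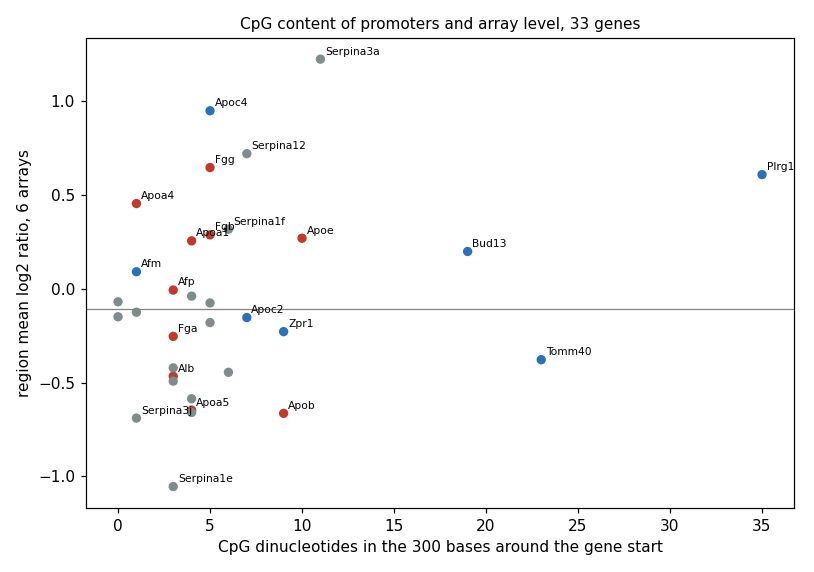
CpG sites in the 300 bases around the gene start (x axis) against the region's level (y axis, log2, mean over 6 arrays) for the 33 genes with a RefSeq promoter, red for the named genes, blue for their neighbours and grey for the Serpina cluster. The grey line is the median of all regions. Serpina1e with 3 sites and Apob with 9 lie low, and Apoc4 with 5 and Serpina3a with 11 lie high.

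The 6 letters GTTAAT, a part of the motif bound by HNF1, were searched on both strands of these promoters. They occurred in 12 of the 33 promoters, against 7.20% of all promoters in the table: Alb, Afp, Afm, Fga, Fgb, Apoc2, Serpina3c and the 5 near-identical promoters of Serpina1a to Serpina1e. In the printed sequence of Alb the run gttaat stands close to the gene start, and in that of Afp it stands farther upstream. The 12 genes with the run had region levels from -1.05 (Serpina1e) to 0.29 (Fgb) in the main values. Those without it had levels from -0.69 (Serpina3j) to 1.23 (Serpina3a), so the ranges overlapped. A relation between the run and the level was not tested.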

How the data were processed

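Of the deposited files, the processed signals of the 6 scanner outputs are intensity values from Agilent Feature Extraction 11.0.1.1, per the file headers, which record a subtracted local background, a linear dye factor and no lowess. The authors' deposited series values were taken as log2 ratios, an assumption, since their log base and method are not given in the sources used here. Set against each array's scanner values they had slopes of 0.526 to 0.587 on the main values and 0.948 to 1.04 after normexp, so they run red over green, and their column medians were 0.031 to 0.040. Their centring and smoothing stay unknown.

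Log2 ratios of the processed signals were centred on each array's median over probes. Left out were 5827 control spots and 360 flagged probes, not saturated spots. Regions and probes were fitted with limma 3.58.1 in R 4.3.3 (lmFit and eBayes, group only), adjusted by Benjamini-Hochberg over the whole array at 0.05. The script was tested on simulated data. Tables and figures were made with Python 3.11.15 (pandas 2.3.3, Biopython 1.88, matplotlib 3.10.9). Arrays give no depth, so their number limits the precision.

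The files name no genes and no mm9 annotation was used. Regions were named by matching their spacing to that of gene starts in RefSeq GRCm38.p6, without converting coordinates, a method chosen after the files were seen. In the 5 windows with several genes, 39 of 40 regions matched within 1000 bp, and the next-best placements matched 1, 2, 2, 1 and 6 regions. Ttr and Apob were named by their single-gene windows. Levels given in 5 ways are the main values, normexp, loess, detected probes only and the authors' table. Named were all regions outside the Serpina cluster, in that cluster the 3 highest, the 3 lowest and the 3 of smallest unadjusted p, and the 5 highest and 5 lowest probes. Serpina1a to Serpina1d, the other genes of the CpG paragraph and the 3 probes of smallest p were chosen after their values were seen. Gene lists of liver factors, lipoprotein and acute-phase genes and markers of other cell types, apart from Apoc2 and Apoc4, lie outside the windows and were not analysed here. Normexp (offset 50) used the median signals of the spots, since the files hold no mean signals. Members and lists were chosen with earlier results of these data known.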

Additional observations from a re-analysis of the deposited data

How the results depend on the processing

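Under all 16 alternatives, 0 of the member regions passed the adjusted threshold, and the same held for probes in the 14 alternatives with a fit per probe. Without adjustment, 1 region and 3 probes had p under 0.05. The count of regions was 0 of 42 with normexp, with the replicate block and with the median over probes, where 0.168%, 0.509% and 1.33% of all regions had such a p. It was 2 of 39 with only detected probes, against 0.409% of all 19568 regions, and these were Apoc4 and Ttr, the latter at -0.19. The count of probes was 1 with normexp (all probes 0.245%) and 1 in the authors' deposited table (all probes 0.766%). When each array was dropped in turn, the count ran from 0 to 1 for regions and from 1 to 8 for probes, while 0.541% to 2.54% of all regions and 1% to 2.44% of all probes had such a p. The probe count was 1 without chromium-restricted array 1, 8 without array 2 and 6 without array 3, and 6, 7 and 1 without control arrays 1, 2 and 3. Apoc4 had p under 0.05 in 9 of 16 alternatives, and its p ranged from 0.0188 to 0.601.

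Arrays with the same replicate number shared a scan. The correlation of their deviations was 0.15 for number 1, -0.59 for number 2 and 0.20 for number 3, and 2 of 6 arrays correlated best with their own number. The numbers were therefore taken to mark only the scan. Whether they also mark a pairing of samples cannot be told from so few arrays. With the replicate block, adjusted calls were 0 for regions and 0 for probes, and calls without adjustment were 0 for regions and 4 for probes.

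Of 28 named regions, 10 kept the sign of their difference under every alternative that gave a value: Alb, Apoc3, Bud13, Apoc4, Apoc1, Apoe, Plrg1, Serpina1f, Serpina11 and Serpina3b. In the others the difference changed sign in some alternatives. With normexp it was -0.034 at Afp, -0.017 at Apob, 0.024 at Tomm40, -0.015 at Fgb and -0.029 at Serpina3a. With loess within arrays it was -0.0091 at Afp, -0.0068 at Apob, -0.0092 at Fgb and 0.021 at Serpina3j. In the authors' deposited table it was -0.021 at Afp, -0.022 at Apoa1, -0.011 at Apob, 0.025 at Tomm40, -0.065 at Fgb, -0.057 at Serpina3a, 0.0019 at Serpina3h and 0.0046 at Serpina3j. With the median over probes it was -0.25 at Afp, -0.0036 at Apoa5, -0.021 at Zpr1, 0.056 at Apoc2, 0.091 at Fgg, -0.038 at Serpina3a, 0.025 at Serpina12 and 0.16 at Serpina3j. With only detected probes it was -0.0027 at Afm, -0.015 at Apoa1, -0.015 at Apoa5, -0.021 at Apob and -0.022 at Serpina3a. With regions of probes at most 500 bp apart it was -0.038 at Apoa1. With quantile normalization it was 0.00070 at Tomm40 and -0.0030 at Fgb. Over the fits that left out 1 array, the differences that changed sign ranged from -0.095 to 0.17 at Afp, -0.022 to 0.15 at Afm, -0.087 to 0.063 at Apoa1, -0.0022 to 0.13 at Apoa4, -0.063 to 0.052 at Apoa5, -0.032 to 0.13 at Zpr1, -0.057 to 0.076 at Apob, -0.14 to 0.020 at Apoc2, -0.020 to 0.011 at Tomm40, -0.087 to 0.044 at Fgg, -0.094 to 0.025 at Fga, -0.047 to 0.062 at Fgb, -0.16 to 0.013 at Ttr, -0.15 to 0.15 at Serpina3a, -0.067 to 0.013 at Serpina12, -0.15 to 0.054 at Serpina1e, -0.13 to 0.094 at Serpina3h and -0.13 to 0.14 at Serpina3j. Afp and Bud13 had no value with only detected probes, and Serpina3a none at 500 bp. The causes were not tested.

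Mean levels of some windows moved with the processing by more than the spread between arrays. The median over all regions of the array moved as well. It was -0.11 in the main values, -0.049 with loess, 0.17 with only detected probes, -0.024 in the authors' deposited table and 0.036 with normexp. The window levels given here are not adjusted for this shift. The main mean levels were -0.13 in the Alb-Afp window, -0.20 in the Apoa1-Apoa5 window, -0.66 in the Apob window, 0.019 in the Apoe-Apoc1 window, 0.31 in the Fibrinogen window, -0.18 in the Serpina window and -0.23 in the Ttr window. With loess within arrays the mean level was 0.24 in the Alb-Afp window, -0.22 in the Apoa1-Apoa5 window and -0.11 in the Apoe-Apoc1 window. With only detected probes the mean level was 0.036 in the Alb-Afp window, 0.11 in the Apoa1-Apoa5 window, -0.42 in the Apob window, 0.10 in the Apoe-Apoc1 window, 0.57 in the Fibrinogen window, 0.00089 in the Serpina window and 0.0082 in the Ttr window. In the authors' deposited table the mean level was -0.52 in the Alb-Afp window, 0.080 in the Apoa1-Apoa5 window, -0.28 in the Apob window, 0.34 in the Apoe-Apoc1 window and 0.0041 in the Serpina window. With normexp the mean level was 0.074 in the Apoa1-Apoa5 window, -0.25 in the Apob window, 0.22 in the Apoe-Apoc1 window, 0.032 in the Serpina window and -0.076 in the Ttr window. The cause was not tested. A limit on depth was the signal over background, since 79 of the 313 probes, and all 7 at Afp, were not detected.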
